A study of Homo sapiens with 18 samples.

Results

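The comparison described here set Ccd18-Co cultures that had received inflammatory cytokines and then belinostat against cultures that had received neither. It comprised 12 of the 18 bulk assay for transposase-accessible chromatin (ATAC-seq) libraries of the series, chosen by their labels, with 6 stimulated_Belinostat and 6 unstimulated libraries. Ccd18-Co is a fibroblast line from normal human colon, and all groups came from this single line. The stimulated cells were given 3 pulses of a cytokine cocktail, each with 72 h of cytokines in serum-free medium and 96 h of recovery in full growth medium. The cocktail held TNF, OSM and IL-17A at 10 ng/ml each and IL-1β at 0.1 ng/ml. After 1 week of rest they were kept for 5 days in 250 nM belinostat or in DMSO, and nuclei were taken 2 weeks later. The 6 stimulated_DMSO libraries had the same pulses and vehicle and are given beside them. No vehicle is named for the unstimulated cells, so cytokines, belinostat and vehicle cannot be told apart in this contrast alone.

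Belinostat inhibits histone deacetylases, the enzymes that remove acetyl groups from histone tails, and acetylated chromatin is generally the more open. In the gut, fibroblasts that have met TNF, IL-1β, IL-17A and OSM can take up an inflammatory state in which they make neutrophil- and monocyte-attracting chemokines, prostaglandin-synthesising enzymes and matrix-degrading proteases. ATAC-seq counts the cuts that a transposase makes in accessible DNA, so a peak rises when its sequence becomes easier to reach.

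The deposited table held fragment counts for 334857 consensus peaks (genome build hg38). Counts in peaks ranged from 7077321 to 11352032 in the unstimulated libraries, from 6488975 to 8066642 in the DMSO libraries and from 4661678 to 6370845 in the belinostat libraries, so the 2 groups compared did not overlap in depth. The spread between libraries, as a biological coefficient of variation fitted within each group, was 7.84% for unstimulated, 11.3% for DMSO and 14.8% for belinostat. Unstimulated replicate 6 stood apart, with 11.3% of its peaks at 0 against 1.01 to 4.20% in the other unstimulated libraries. The labels do not say whether the 6 libraries of a group came from separate passages, so p-values measure the spread between these libraries only. All 12 markers of the fibroblast list had peaks, with a median of 2.34 CPM (counts scaled to the library total) per kb of locus in the unstimulated group. The median of all gene loci was 0.838 CPM per kb. Having peaks did not set the fibroblast list apart. All 12 epithelial, 9 endothelial, 6 glial and 8 neuronal markers and 10 of 11 immune markers had them too. The medians of the epithelial, endothelial, immune, glial and neuronal lists were 0.834, 0.443, 0.295, 0.607 and 0.296 CPM per kb. The summed level of the immune list lay between 86.0 and 99.7 CPM in unstimulated and between 88.0 and 91.3 CPM in belinostat libraries.

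Chromatin of the cytokine and belinostat cultures remained away from the unstimulated state at a large number of peaks. With edgeR's quasi-likelihood test and TMM scaling (which equates the bulk of peaks between libraries), 56111 peaks were more accessible than in unstimulated cells, 16.8% of the 334857 tested, and 45962 were less accessible, 13.7%, at a Benjamini-Hochberg adjusted p under 0.05. Both counts moved with the way libraries were scaled. With loess offsets, which remove each library's fitted trend against peak strength, 23757 peaks (7.09%) were called opened and 12385 (3.70%) closed. Without belinostat replicate 4 the count of opened peaks under TMM was 37404.

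Peaks called in the same direction under all 5 scalings tried form a stricter set. The scalings were TMM over peaks, library totals, TMM over 10 kb bins, TMM over the weaker 50% of peaks, and loess offsets. The text below calls such peaks opened or closed with every scaling. There were 8255 such opened peaks (2.47% of those tested) and 8918 closed ones (2.66%). The opened set was made of weak peaks with large changes, with a median log2 fold change of 1.86 under TMM. The rule itself selects such rises. TMM over the weaker peaks put the median of all peaks at -0.37, against 0.20 with TMM over all peaks. The set thus leaves out smaller rises, and all 8255 opened peaks rose by at least 1 log2 unit under TMM. For these peaks the median was 1.18 in the DMSO libraries against unstimulated and 0.68 in belinostat against DMSO. The closed set had a median log2 fold change of -1.0. Its median was -0.49 in DMSO against unstimulated and -0.54 in belinostat against DMSO, where the comparisons share their libraries. Both sets were chosen on the sum of these steps, so the signs of the medians are a description only.

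The clearest gradient ran along peak strength. In the weakest 10% of peaks the median log2 fold change was 1.01 under TMM and 0.65 with loess offsets, and 30.1% were called opened under TMM. In the strongest 10% the median was -0.50 under TMM and 0.02 with loess offsets, and 81.7% were called closed under TMM. The same gradient is seen without any scaling in the share of a library's counts. The strongest 10% of peaks held 66.1% ± 1.95 (SD, n = 6) of the counts of unstimulated libraries, 59.7% ± 2.11 of DMSO and 56.5% ± 3.81 of belinostat libraries. The weaker 50% of peaks held 6.64% ± 1.23, 10.7% ± 1.39 and 12.4% ± 2.63. In both measures no belinostat library overlapped an unstimulated one, with an adjusted p of 0.00794 by the exact two-sided permutation test over 22 classes. Belinostat libraries did not differ detectably from DMSO libraries (adjusted p = 0.426 for each). The share of counts outside strong peaks also moves with the background of a library, and its part in these shifts was not tested.

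**Figure D1:**
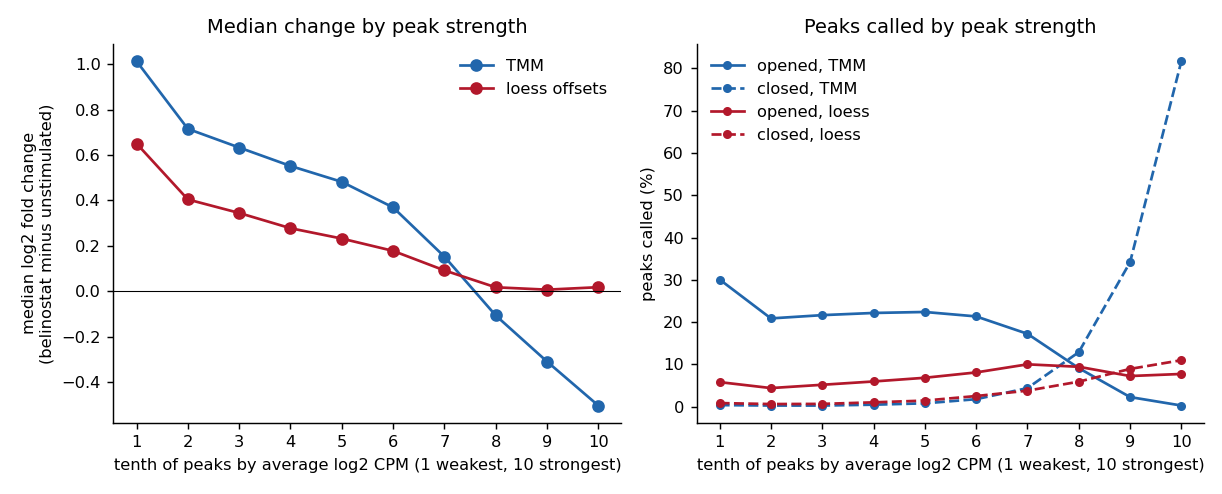
Left, median log2 fold change of belinostat against unstimulated libraries for 10 equal classes of the 334857 peaks ordered by average log2 CPM, under TMM (blue) and loess offsets (red). Right, percent of peaks of each class called opened (solid) or closed (dashed) at an adjusted p under 0.05. Under TMM the closed share climbs to 81.7% in the strongest class, and with loess offsets it is 11.0%.

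Promoters, here peaks centred within 3 kb of the start of a protein-coding or lncRNA gene, gave up part of their share of the signal. They held 40.7% ± 0.841 (SD, n = 6) of counts in unstimulated and 36.9% ± 1.82 in belinostat libraries (exact permutation test, adjusted p = 0.00840), with 5 of 6 belinostat libraries below all unstimulated ones. Introns went from 36.1% ± 0.391 to 37.8% ± 0.795, exons from 5.40% ± 0.0746 to 5.71% ± 0.154 and intergenic peaks from 17.8% ± 0.395 to 19.6% ± 0.884, each with an adjusted p of 0.00840. The DMSO libraries lay between, with 37.8% ± 1.10 at promoters, and did not differ detectably from belinostat libraries (adjusted p = 0.426).

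The calls at promoters depended on how peak strength was treated. Under TMM, 33.6% of promoter peaks were closed and 10.5% opened, against 9.32% closed and 19.9% opened among intergenic peaks. With loess offsets, which compare a peak with others of its strength, 2.63% of promoter peaks were closed and 7.34% opened. Among intergenic peaks these were 3.58% and 7.66%. Promoter peaks were then closed less often than intergenic ones, but still opened slightly less often. With offsets that also removed each library's GC trend, 3.379% of promoter peaks were closed and 4.559% opened, against 2.602% and 6.905% of intergenic peaks. Promoter peaks were there again closed more often and opened less often. Within the strongest 10% of peaks, 86.2% of promoter peaks and 78.2% of peaks away from starts were closed under TMM. With loess offsets these were 3.20% and 16.9%. Among strong peaks, promoters were thus closed more often than other peaks under TMM and less often with loess offsets.

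**Figure D2:**
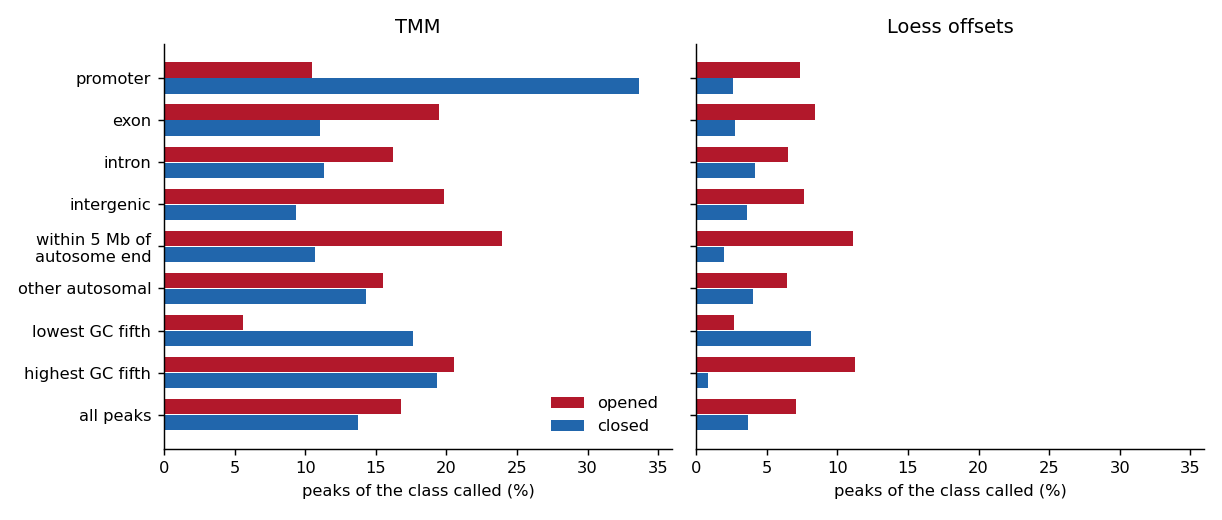
Percent of the peaks of each class called opened (red) or closed (blue) under TMM (left) and loess offsets (right), for gene features, position on the autosome and GC content, with all peaks at the bottom. The excess of closed promoter peaks under TMM (33.6% against 10.5% opened) is absent with loess offsets (2.63% against 7.34%).

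Chromosome ends were among the classes that stayed more open. Of the 42842 peaks within 5 Mb of an autosome end, 23.9% were opened and 10.7% closed under TMM, and 11.1% and 1.97% with loess offsets. The other autosomal peaks gave 15.5% and 14.3% under TMM, and 6.47% and 4.00% with loess offsets. Peaks near the ends held 11.5% ± 0.242 of counts in unstimulated and 12.2% ± 0.484 in belinostat libraries (exact permutation test, adjusted p = 0.0201), beside 12.2% ± 0.261 in DMSO libraries. Their median GC content was 56.7% against 49.3% elsewhere, and GC content moved with opening by itself: with loess offsets 2.72% of the 66972 peaks lowest in GC were opened and 8.14% closed, against 11.2% and 0.871% of the 66970 peaks highest in GC. Within the peaks highest in GC, the loess medians were 0.36 near the ends and 0.19 elsewhere. With offsets that also removed each library's GC trend, 7.61% of peaks near the ends and 6.01% of other autosomal peaks were opened.

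Counts summed over 1 Mb windows placed these changes on the genome. Of 2369 windows with at least 30 peaks, 39 were higher with every scaling (1.65% of those tested) and 555 lower (23.4%). Among the 185 windows within 5 Mb of an autosome end, 10 were higher (5.41%) and 18 lower (9.73%), and among the other 2184 windows 29 were higher (1.33%) and 537 lower (24.6%). The window with the largest rise with loess offsets, chr5:3000001-4000000, holds IRX1, a homeobox factor, and its log2 fold change was 1.02 ± 0.168 (SE) under TMM. Its neighbour chr5:2000001-3000000, with IRX2, rose by 0.86 ± 0.150. chr1:4000001-5000000 with AJAP1 and chr18:78000001-79000000 with SALL3 rose by about the same (0.90 ± 0.166 and 0.90 ± 0.195). In these windows the change was spread over many peaks: in the IRX1 window 65 of 148 peaks were opened and 0 closed under TMM. With loess offsets 24 of them were opened, and with every scaling 14. The strongest peak of that window held 2.20% of its counts in unstimulated libraries. The part of the general rise of weak peaks in these windows was not tested. The largest fall was in a gene-poor stretch, chr9:80000001-81000000, at -0.71 ± 0.0749, and there 8 of 33 peaks were closed and 6 opened under TMM. The strongest peak of this stretch held 18.3% of its counts in unstimulated libraries. By chromosome, the X held 2.01% ± 0.0346 of counts in unstimulated and 2.20% ± 0.0978 in belinostat libraries (exact permutation test over 23 chromosomes, adjusted p = 0.0111), the largest relative rise. DMSO libraries held 2.13% ± 0.0497, not detectably different from belinostat (same test, adjusted p = 0.292). Peaks of the X were weak, with a median of 0.01 log2 CPM against 0.20 for all peaks, and the part of this in its rise was not tested. Chromosome 17 fell from 5.32% ± 0.0284 to 5.22% ± 0.0143 (adjusted p = 0.00622).

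A DNA word set the closed distal peaks apart. The E-box CAGCTG, a hexamer bound by dimers of basic helix-loop-helix factors, was present in the central 200 bp of 35.8% of the peaks closed with every scaling. It was present in 17.2% of all peaks and in 14.2% of those opened with every scaling. To set aside promoters and very weak peaks, the same was counted in the 70279 peaks over 3 kb from a start with an average of at least 1 log2 CPM. There the word was in 35.98% of the 7117 peaks closed with every scaling, in 19.5% of all and in 14.2% of the 5785 opened with loess offsets. Read the other way, 19.5% of the distal peaks with the word were closed with loess offsets, against 8.52% of those without it. Its matches were densest at the middle of the closed peaks, where 5.38% of them held the word in the 20 bp right of the centre, against 2.44% of all distal peaks. At 280 to 300 bp to the right the values were 1.28% and 1.18%.

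**Figure D3:**
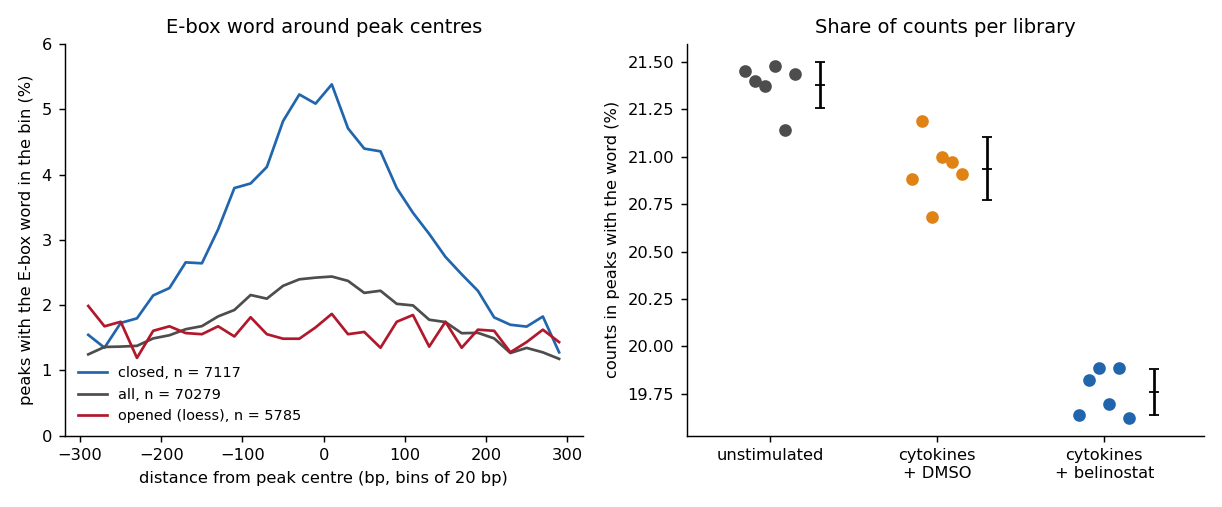
Left, percent of distal peaks that hold the E-box word in bins of 20 bp around the peak centre, for peaks closed with every scaling (blue), all peaks (grey) and peaks opened with loess offsets (red). Right, percent of each library's counts in distal peaks that lie in peaks with the word (axis from 19.5%), with mean ± SD beside the 6 points of each group; the 6 belinostat libraries lie between 19.6% and 19.9%, below all others.

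The loss of E-box peaks was seen in every belinostat library. Peaks with the word took 21.1 to 21.5% of the distal counts in unstimulated libraries, with a median of 21.4%. They took 20.7 to 21.2% in DMSO libraries (median 20.9%) and 19.6 to 19.9% in belinostat libraries (median 19.8%), so the 3 groups fell in steps and the belinostat libraries overlapped neither of the others. Belinostat was below unstimulated by 1.62 percentage points (means 19.8% ± 0.121 and 21.4% ± 0.121, SD, n = 6; exact two-sided permutation p = 0.00216, the smallest that 6 against 6 can give; adjusted p over 10 words = 0.00722). It was below DMSO by 1.18 points, with the same p-values, and DMSO was below unstimulated by 0.441 points (exact permutation test, adjusted p = 0.0216). The difference was kept in peaks of 40 to 50% GC (20.6% ± 0.150 against 18.7% ± 0.146, SD, n = 6) and in peaks with no AP-1 word (21.3% ± 0.122 against 19.7% ± 0.129). In each of 10 classes of peak strength, distal peaks closed with loess offsets held the word more often than all distal peaks, at 20.1 to 36.3% against 13.4 to 21.3%. At promoters the difference was smaller, with 13.2% ± 0.0438 in unstimulated and 13.1% ± 0.0849 in belinostat libraries (exact permutation p = 0.0108), 4 of 6 belinostat libraries lying below all unstimulated ones. The share test was chosen after the enrichment had been seen in these same libraries.

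The other 9 words moved less. The CEBP word TTGCNNAA fell from 13.0% ± 0.101 to 12.5% ± 0.121 of distal counts, and AP-1 TGANTCA from 22.4% ± 0.250 to 21.8% ± 0.197 (adjusted p = 0.00722 and 0.0108 by the exact permutation test). The AP-1 word was higher in DMSO libraries, at 22.9% ± 0.340, than in belinostat libraries (adjusted p = 0.00722). RUNX TGTGGTT fell from 6.92% ± 0.0487 to 6.81% ± 0.0906 (adjusted p = 0.0460). CTCF CCACNAGG rose from 3.85% ± 0.0416 to 4.00% ± 0.0707 (adjusted p = 0.00722), and NF-kB GGGNNTTCC from 3.24% ± 0.0177 to 3.28% ± 0.0227 (adjusted p = 0.0173). ETS CCGGAAGT and NRF1 TGCGCANGC, each in under 0.4% of distal counts, also rose (adjusted p = 0.0216 and 0.0460). For TEAD GGAATG and IRF GAAANNGAA no difference was detected (adjusted p = 0.368 for both).

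The peaks that closed furthest were single distal elements. By the fixed rule (called in the same direction under TMM and loess offsets, average log2 CPM of at least 1, no overlap between the 6 and 6 libraries) 6885 peaks fell and 540 rose, and the 10 largest of each are described. The first, chr11:126124172-126124869, lies 61.2 kb from the start of CDON, a cell-surface co-receptor of hedgehog signalling, in an intron of an unnamed lncRNA. It had 10.4, 13.7 and 16.4 CPM as lowest, median and highest unstimulated value, 4.50, 9.33 and 13.1 CPM in DMSO and 1.17, 1.52 and 2.08 CPM in belinostat libraries. Every belinostat library was thus below every DMSO library. The log2 fold change was -3.04 ± 0.20 (SE) against unstimulated (edgeR, adjusted p = 2.29e-30) and -2.41 ± 0.21 against DMSO (adjusted p = 1.83e-18).

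The second, chr10:98357548-98357748, an intergenic peak 57.5 kb from PYROXD2, had a median of 2.72 CPM in unstimulated, 2.36 CPM in DMSO and 0.363 CPM in belinostat libraries. It did not differ detectably between DMSO and unstimulated (log2 fold change -0.21, edgeR adjusted p = 0.479) and was -2.57 ± 0.33 in belinostat against DMSO (adjusted p = 2.08e-09). The third, chr2:22499896-22500281, in a lncRNA intron 885 kb from KLHL29, went from a median of 3.78 CPM to 2.20 CPM in DMSO and 0.671 CPM in belinostat libraries. Their central 200 bases are shown because they carry the largest losses and the first and second each hold the E-box word; capitals mark matches to any of the 10 words on either strand. All are hg38, plus strand, at chr11:126124420-126124619, chr10:98357548-98357747 and chr2:22499988-22500187.
Closed near CDON: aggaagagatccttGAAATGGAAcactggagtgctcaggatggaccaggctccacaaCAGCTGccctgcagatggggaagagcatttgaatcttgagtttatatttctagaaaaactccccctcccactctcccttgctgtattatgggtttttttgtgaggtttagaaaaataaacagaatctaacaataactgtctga
Closed near PYROXD2: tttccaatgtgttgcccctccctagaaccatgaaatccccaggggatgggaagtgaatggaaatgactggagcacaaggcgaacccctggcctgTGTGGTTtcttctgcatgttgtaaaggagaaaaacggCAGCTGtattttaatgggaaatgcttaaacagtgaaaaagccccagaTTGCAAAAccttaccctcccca
Closed toward KLHL29: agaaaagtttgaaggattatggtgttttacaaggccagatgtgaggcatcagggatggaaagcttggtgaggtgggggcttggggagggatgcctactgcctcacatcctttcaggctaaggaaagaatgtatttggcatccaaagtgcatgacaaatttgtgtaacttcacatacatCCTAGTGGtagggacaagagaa
The capitals are an IRF word and CAGCTG in the CDON peak, RUNX, CAGCTG and CEBP words in the PYROXD2 peak, and only a CTCF word in the third. Among all 10 named closed peaks, 5 held CAGCTG.

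Of the other closed peaks, chr9:80797800-80798753 stood in the gene-poor window on chromosome 9 described above, 891 kb from TLE1, a corepressor of transcription. Its median was 14.3 CPM in unstimulated, 6.36 CPM in DMSO and 2.41 CPM in belinostat libraries, with a log2 fold change of -2.57 ± 0.17. The peak chr20:34605019-34605418, in an intron of PIGU, a subunit of the enzyme complex that attaches GPI anchors, was already low in DMSO libraries. Its medians were 4.50, 1.47 and 0.633 CPM, and belinostat did not differ detectably from DMSO there (edgeR, adjusted p = 0.128). The remaining 5 closed peaks fell by 2.47 to 2.62 on the log2 scale. They lay in introns of TATDN1, LINC02099 and WASHC1, 4.61 kb from the start of EDEM2, and 202 kb from that of MED30.

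The named opened peaks were high in both stimulated groups. The peak chr10:123857828-123858764, in an intron of CPXM2, a carboxypeptidase-like secreted protein, had 0.892, 1.27 and 2.03 CPM (lowest, median, highest) in unstimulated libraries. It had 5.45, 7.61 and 8.89 CPM in DMSO and 4.16, 5.74 and 7.03 CPM in belinostat libraries. Its log2 fold change was 1.99 ± 0.21 against unstimulated (edgeR, adjusted p = 8.56e-15) and -0.42 ± 0.15 against DMSO (adjusted p = 0.134). A peak in an intron of HSD11B1, the enzyme that regenerates active glucocorticoid, at chr1:209720331-209721193, had medians of 2.63, 9.34 and 8.03 CPM in the 3 groups and a log2 fold change of 1.68 ± 0.18. Against DMSO the adjusted p of the 10 opened peaks ranged from 0.134 to 0.918, so none differed detectably. The largest rises by TMM were a pair of peaks, in an intron of FAM110B (2.07 ± 0.28) and 190 kb from the start of UBXN2B (2.06 ± 0.28). The others lay in AACSP1, near LCE6A and ABCA12 and in an intron shared by C8orf74 and RP1L1, and rose by 1.67 to 1.78. The log2 fold changes against DMSO were between -0.42 and 0.44.

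The next 3 rises after the first and second are printed as the counterpart of the closed sequences, again as the central 200 bases on the plus strand of hg38, at chr10:123858196-123858395, chr5:1726073-1726272 and chr5:66885006-66885205. The second lies in an exon of an unnamed lncRNA 75.2 kb from MRPL36, and the third in an intron of MAST4, a microtubule-associated kinase.
Opened in CPXM2: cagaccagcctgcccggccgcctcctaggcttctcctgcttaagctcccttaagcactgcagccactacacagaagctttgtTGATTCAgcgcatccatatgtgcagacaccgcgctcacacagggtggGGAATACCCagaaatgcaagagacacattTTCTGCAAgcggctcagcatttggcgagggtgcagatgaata
Opened toward MRPL36: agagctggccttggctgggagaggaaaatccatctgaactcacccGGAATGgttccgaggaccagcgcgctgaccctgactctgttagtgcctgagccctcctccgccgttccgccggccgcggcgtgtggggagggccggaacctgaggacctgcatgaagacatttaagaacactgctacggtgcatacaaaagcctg
Opened in MAST4: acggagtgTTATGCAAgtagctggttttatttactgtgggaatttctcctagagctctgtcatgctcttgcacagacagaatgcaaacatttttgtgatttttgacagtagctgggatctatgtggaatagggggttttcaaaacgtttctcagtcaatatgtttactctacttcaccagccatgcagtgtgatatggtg
The CPXM2 peak holds words of AP-1, NF-kB and CEBP, the second a TEAD word and the MAST4 peak a CEBP word, and CAGCTG is in none of the windows.

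Counts were next summed per gene over the peaks of its body and the 3 kb upstream, giving 18893 protein-coding loci. Loci are dominated by strong peaks, so under TMM the median log2 fold change of all loci was -0.35, and 12456 loci were lower (65.9%) and 2427 higher (12.8%). With loess offsets the median was -0.01, with 3157 lower (16.7%) and 3960 higher (21.0%). For loci these offsets were fitted to the summed counts, against the trend over loci of similar strength. A locus with a single peak can thus differ from its peak. Tested as peaks, those of PTGS2, CXCL5 and CCL11 had 1.47, 1.18 and -1.56 with loess offsets. Such offsets did not fully level weak peaks, since the median of the weakest 10% of peaks was still 0.65 with them. With every scaling 2586 loci were lower (13.7%) and 299 higher (1.58%). This rule again leaves out smaller rises, since TMM over the weaker peaks put the median of all loci at -0.91. Single genes below are read against these medians, and the counts of the gene lists against these shares.

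**Figure D4:**
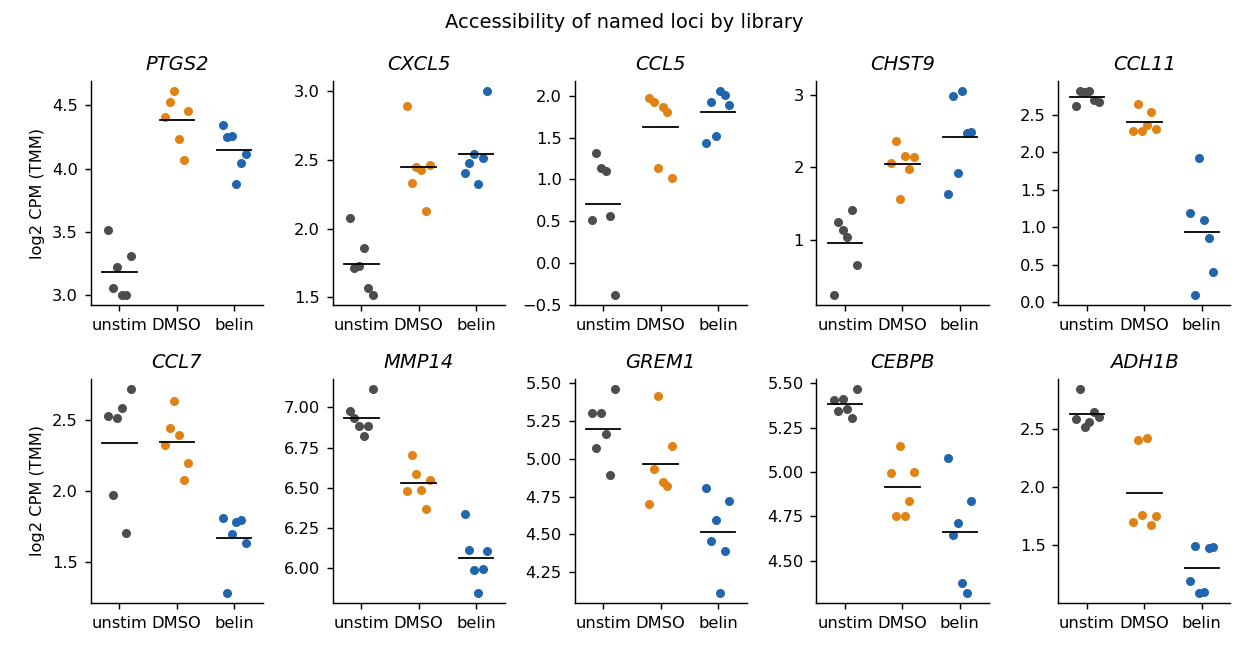
Log2 CPM (TMM) of 10 loci in each library (6 points a group), with the group mean as a line, for unstimulated (grey), DMSO (orange) and belinostat (blue). In PTGS2, CXCL5, CCL5 and CHST9 all belinostat libraries lie above the unstimulated ones, and in CCL11, MMP14, GREM1, CEBPB and ADH1B all lie below.

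Inflammatory genes split. PTGS2, the inducible cyclooxygenase of prostaglandin synthesis, stayed well above the unstimulated state. Its single peak at the promoter had 7.73, 8.57 and 11.2 CPM (lowest, median, highest) in unstimulated, 16.5, 21.3 and 24.2 CPM in DMSO and 14.4, 17.9 and 20.1 CPM in belinostat libraries. All belinostat libraries lay above all unstimulated ones, at 1.96-fold. The log2 fold change of the locus was 0.97 ± 0.12 under TMM and 1.20 ± 0.10 with loess offsets (edgeR, adjusted p = 1.76e-07 and 3.97e-09), and belinostat did not differ detectably from DMSO (-0.25 ± 0.10, adjusted p = 0.172). Tested as a peak, it was not called with TMM over the weaker peaks (0.40, edgeR adjusted p = 0.142). The promoter as given by RefSeq (GRCh38.p14, chr1:186680374-186680673, minus strand) lies inside this peak and is shown for that reason, with word matches in capitals:
PTGS2 promoter: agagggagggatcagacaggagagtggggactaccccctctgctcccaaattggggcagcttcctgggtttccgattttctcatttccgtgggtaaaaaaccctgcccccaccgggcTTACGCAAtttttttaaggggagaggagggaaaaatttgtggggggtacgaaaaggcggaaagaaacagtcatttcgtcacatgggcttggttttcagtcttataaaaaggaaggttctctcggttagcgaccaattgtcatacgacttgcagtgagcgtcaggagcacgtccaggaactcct
The match is a CEBP word, which 10.5% of the 35116 promoters of that table hold.

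Chemokine loci moved in both directions. CCL11, the eosinophil attractant eotaxin, fell furthest of the listed genes. Its 1 peak, over the gene start at chr17:34284958-34285884, had 5.85, 6.47 and 6.77 CPM in unstimulated, 4.57, 4.77 and 5.96 CPM in DMSO and 0.781, 1.69 and 3.51 CPM in belinostat libraries. The belinostat libraries lay below both other groups, 3.62-fold under unstimulated by the fit. The log2 fold change was -1.86 ± 0.20 under TMM and -2.11 ± 0.20 with loess offsets (edgeR, adjusted p = 4.28e-08 and 3.41e-08), and against DMSO it was -1.51 ± 0.21 (adjusted p = 0.000159).

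Its neighbours on chromosome 17, the monocyte attractants CCL7 and CCL2, were lower too. CCL7 had medians of 5.44, 4.84 and 3.05 CPM and a log2 fold change of -0.75 ± 0.18 (edgeR, adjusted p = 0.000569), though its groups overlapped and DESeq2's size factors gave -0.39, which was not called. It was also lower than in DMSO (-0.72 ± 0.18, adjusted p = 0.0363). CCL2 had -0.59 ± 0.11 under TMM and -0.19 ± 0.06 with loess offsets. The CCL7 promoter (RefSeq, GRCh38.p14, chr17:34269971-34270270, plus strand) lies within its peak, whose central 200 bp hold CAGCTG. The only word within the promoter itself is an AP-1 word, held by 7.71% of promoters:
CCL7 promoter: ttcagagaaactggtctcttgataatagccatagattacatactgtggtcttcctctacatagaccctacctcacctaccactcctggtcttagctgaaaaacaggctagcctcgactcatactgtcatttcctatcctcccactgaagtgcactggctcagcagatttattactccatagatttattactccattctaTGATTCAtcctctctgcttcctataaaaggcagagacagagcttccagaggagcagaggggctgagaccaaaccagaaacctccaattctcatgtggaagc

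CCL5, which attracts T cells, was higher with every scaling, from 0.483, 1.53 and 2.21 CPM to 2.41, 3.46 and 3.86 CPM, with 3.28 CPM as the DMSO median. Its log2 fold change was 1.12 ± 0.25 (edgeR, adjusted p = 0.000211), and of its 5 weak peaks 2 passed the test by themselves under TMM. CXCL5, a neutrophil attractant, had medians of 3.01, 5.12 and 5.34 CPM. All belinostat libraries lay above all unstimulated ones, with 0.85 ± 0.17 under TMM and 0.64 ± 0.16 with loess offsets (edgeR, adjusted p = 5.65e-05 and 0.00361), but TMM over the weaker peaks gave 0.27 (adjusted p = 0.173) and assigning peaks to the nearest start gave -0.04. CXCL2, also a neutrophil attractant, was lower at -0.51 ± 0.10 and was below DMSO as well (-0.38 ± 0.10, edgeR adjusted p = 0.0375), though DESeq2's size factors gave -0.16 and no call against unstimulated. Of the 7 measured neutrophil chemokines 1 was lower and 0 were higher with every scaling, a share of 14.3% lower beside 13.7% of all loci. Of the 14 measured monocyte and lymphocyte chemokines 3 were lower and 1 higher.

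Transcription factors of the cytokine response were counted next. Of 8 RUNX and CEBP factors, 6 were lower with every scaling (CEBPB, CEBPA, CEBPD, CEBPG, CBFB and RUNX2), with a list median of -0.57 under TMM and -0.16 with loess offsets. CEBPB, which drives acute-phase genes, had 39.2, 41.4 and 43.97 CPM in unstimulated, 26.7, 29.9 and 35.1 CPM in DMSO and 19.7, 25.3 and 33.5 CPM in belinostat libraries. The belinostat libraries lay below all unstimulated ones, and the log2 fold change was -0.71 ± 0.10 (edgeR, adjusted p = 8.25e-07). It did not differ detectably from DMSO (adjusted p = 0.170). Of 13 AP-1 factors 4 were lower (JUND, FOSB, JUNB and FOSL2), from -0.69 to -0.54. JUND was also lower than in DMSO, at -0.39 ± 0.09 (edgeR, adjusted p = 0.0245).

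Of 16 NF-kB subunits and inhibitors, 4 were lower with every scaling: RELA and NFKB2, which are subunits, and NFKBIA and NFKBIE, which hold subunits in the cytoplasm. They fell by 0.56 to 0.59 under TMM and by 0.17 to 0.24 with loess offsets. Among the 9 receptor genes of the 4 cytokines, TNFRSF1A, the main TNF receptor, and IL1R1, the signalling IL-1 receptor, were lower. TNFRSF1A had medians of 186, 152 and 114 CPM and a log2 fold change of -0.66 ± 0.07 (edgeR, adjusted p = 1.00e-07). Of 14 JAK-STAT and SOCS genes 2 were lower, CISH and SOCS1, feedback inhibitors of cytokine signalling, which at 14.3% is near the 13.7% of all loci. For the AP-1 and NF-kB lists the shares were 30.8% and 25%, and their medians with loess offsets were -0.07 and -0.05.

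The 5 factors that the study associates with inflammatory fibroblasts were close to the median of all loci. TWIST1, PRDM1, GLI3, RELB and ETV4 were each lower under TMM, by 0.29 to 0.44, while the median locus fell by 0.35. With loess offsets TWIST1, PRDM1, GLI3 and RELB were between -0.06 and -0.01, and ETV4 was at 0.13 and called higher. ETV4 was also above 0 with library totals and DESeq2, and GLI3 was at 1.37 when only peaks near its start were summed. The study named these factors from other data. From these libraries it also reported reduced accessibility at the 5 loci for cytokine mix with belinostat against cytokine mix alone. That is another contrast, and the values here are sums over whole loci. In belinostat against DMSO, the 5 summed loci had a median of -0.12 under TMM, beside -0.08 for all loci, and 0 were called. Of the 8 IL-6 family and colony-stimulating genes, 0 were called with every scaling, and likewise 0 of 21 interferon response genes and 0 of 11 hedgehog pathway genes. By TMM alone 4, 14 and 10 of these were lower, beside 65.9% of all loci.

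Matrix-degrading and matrix genes were next. Of 15 metalloproteinases and their inhibitors 6 were lower with every scaling. MMP14, the membrane-anchored collagenase that activates other proteases, had 113, 120 and 138 CPM in unstimulated, 82.5, 91.4 and 104 CPM in DMSO and 57.4, 66.1 and 80.6 CPM in belinostat libraries. The 3 groups were separate from each other. Its log2 fold change was -0.87 ± 0.08 under TMM and -0.45 ± 0.05 with loess offsets (edgeR, adjusted p = 1.70e-09 and 1.62e-07), and -0.47 ± 0.08 against DMSO (adjusted p = 0.00137). Of its 5 peaks, the one 11891 bp into the gene, chr14:22847707-22849196, went from a median of 66.1 to 30.4 CPM. No other of the 5 was called lower with every scaling. With loess offsets the peak at the gene start was at -0.14 (edgeR, adjusted p = 0.288).

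MMP13, another collagenase, was at -0.65 ± 0.11, and MMP2 and MMP8 with the inhibitors TIMP2 and TIMP4 fell by 0.49 to 0.56. For MMP2 the direction turned to 0.56 with only the peaks near its start and to 0.63 when each peak was given to its nearest start. COL1A1 and COL14A1 were among 3 of 19 collagens that were lower (15.8%, near the 13.7% of all loci). FBLN1, FBLN5, SPARC and LOXL1, which organise or crosslink matrix, were the 4 of 20 other matrix genes (20%). With loess offsets 4 collagens were higher and 3 lower, and 4 other matrix genes were higher and 4 lower. The list medians were then 0.01 and 0.06, beside -0.01 for all loci. FBLN1 was lower than in DMSO as well (-0.31 ± 0.06, edgeR adjusted p = 0.0111).

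Some genes by which mesenchymal cells signal to the epithelium were among the lower loci. Of 13 BMP ligands and antagonists, GREM1, BMP5 and FST were lower with every scaling (23.1%, beside 13.7% of all loci). With loess offsets 3 of this list were higher and 3 lower. GREM1, the BMP antagonist of the crypt base, had 29.4, 37.4 and 43.8 CPM in unstimulated, 25.7, 29.3 and 42.3 CPM in DMSO and 17.0, 22.8 and 27.7 CPM in belinostat libraries. The belinostat and unstimulated values did not overlap (log2 fold change -0.69 ± 0.12, edgeR adjusted p = 6.83e-06), and it was below DMSO by -0.46 ± 0.12 (adjusted p = 0.0327). Of 13 WNT ligands and R-spondins, RSPO1, RSPO2 and WNT2B were lower (23.1%), at -0.67 ± 0.08, -0.66 ± 0.09 and -0.61 ± 0.08. The list as a whole was not lower than other loci. Its median was -0.28 under TMM, beside -0.35 for all loci, and 0.01 with loess offsets, where 3 were higher and 3 lower. RSPO2 had the same median in DMSO and belinostat libraries to within a few percent, 63.6 and 65.6 CPM, against 94.2 CPM in unstimulated. Of 16 TGF-β genes 5 were lower, the receptors TGFBR1 and TGFBR2 and the mediator SMAD3 among them. PDGFRA and PDGFRB, fibroblast markers, were lower at -0.55 ± 0.08 and -0.50 ± 0.07, and with COL1A1 they were the 3 of 12 fibroblast markers lower with every scaling. The summed level of those 12 markers lay between 1073 and 1254 CPM in unstimulated and between 717 and 1045 CPM in belinostat libraries, and its part in the results above was not tested.

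Genes of histone deacetylation and acetylation were also counted. Of 16 histone deacetylase genes 2 were lower with every scaling (SIRT1 and HDAC5), 12.5% beside 13.7% of all loci, and of 13 acetyltransferases and bromodomain readers 5 were, including the acetyl-histone reader BRD3 at -0.58 ± 0.08. Of 80 cytosolic ribosomal protein genes 21 were lower and 0 higher, with medians of -0.48 under TMM and -0.14 with loess offsets.

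**Figure D5:**
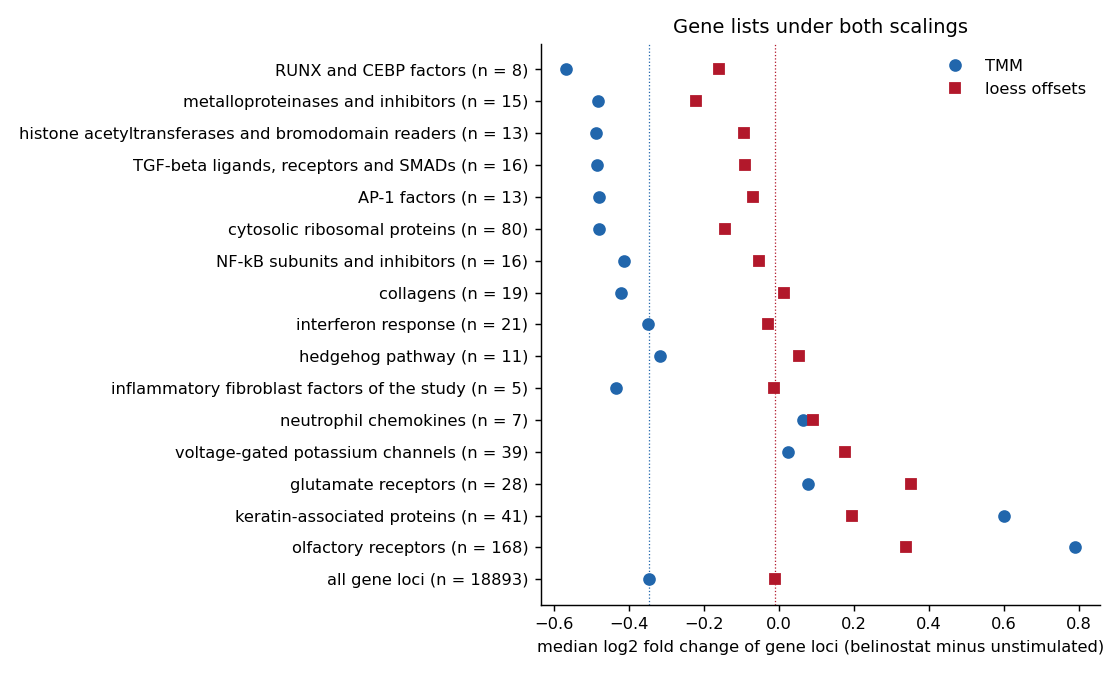
Median log2 fold change of the gene loci of 16 lists and of all 18893 loci, belinostat against unstimulated, under TMM (blue circles) and loess offsets (red squares); dotted lines give the medians of all loci, -0.35 and -0.01. RUNX and CEBP factors lie lowest under TMM (-0.57) and olfactory receptors highest (0.79).

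Some gene families with little accessible chromatin in fibroblasts had medians above that of all loci. Of 168 olfactory receptor genes with a peak (odour sensors silent outside the nose), 71 were higher and 11 lower under TMM, with a median of 0.79. With loess offsets 17 were higher and 10 lower, with a median of 0.34. Both are smaller shares than the 21.0% higher and 16.7% lower among all loci. With every scaling 10 were higher (5.95%, beside 1.58% of all loci) and 4 lower (2.38%, beside 13.7%). Keratin-associated protein genes of hair gave a median of 0.60 under TMM and 0.20 with loess offsets, with 3 of 41 higher and 1 lower with every scaling. With loess offsets 7 were higher and 5 lower, again smaller shares than among all loci. Of 28 glutamate receptor genes 10 were higher and 7 lower under TMM, and 19 higher and 1 lower with loess offsets. With every scaling 2 were higher and 1 lower (GRINA). GRM7, a metabotropic glutamate receptor, rose from a median of 2.24 to 5.15 CPM (4.35 CPM in DMSO; log2 fold change 1.23 ± 0.21, edgeR adjusted p = 9.17e-06).

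GRIA3, a subunit of AMPA receptors, rose from 1.61 to 3.26 CPM with a DMSO median of 2.08 CPM, and the potassium channel modifier KCNV1 from 1.12 to 2.85 CPM with 1.35 CPM in DMSO. KCNV1 was higher than in DMSO by 0.92 ± 0.24 (edgeR, adjusted p = 0.0442). Of 38 HOX genes, the position code of the body axis, 18 were lower and 4 higher under TMM, with a median of -0.25. Both are smaller shares than the 65.9% lower and 12.8% higher among all loci. With every scaling 2 were higher (5.26%, beside 1.58% of all loci) and 0 lower. The higher ones were HOXB1 (medians 2.03, 4.44 and 4.83 CPM, log2 fold change 1.21 ± 0.22) and HOXD4 (1.11, 2.11 and 2.58 CPM, 1.12 ± 0.24), and neither differed detectably from DMSO (adjusted p = 0.798 and 0.576). Assigning peaks to the nearest start turned HOXB1 to -0.40 and GRIA3 to -0.30. The named loci of this group were weak, and the part of the general rise of weak peaks in them was not tested.

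Outside the lists, the rule for named loci passed 1917 lower and 357 higher loci, of which the 10 largest each way are given. ADH1B, an alcohol dehydrogenase, had 5.42, 5.76 and 6.88 CPM in unstimulated, 2.92, 3.09 and 5.08 CPM in DMSO and 1.85, 2.25 and 2.54 CPM in belinostat libraries. The 3 groups were separate (log2 fold change -1.40 ± 0.18, edgeR adjusted p = 4.09e-07; against DMSO -0.74 ± 0.20, adjusted p = 0.0424). IRF8, an interferon regulatory factor best known from myeloid cells, fell from a median of 35.8 to 14.8 CPM with 22.9 CPM in DMSO (-1.29 ± 0.12, and -0.63 ± 0.12 against DMSO, edgeR adjusted p = 0.00566). MYRFL was also below DMSO (-0.68 ± 0.09, adjusted p = 0.000159), while FAM209A stood at the same level in belinostat and DMSO libraries, 14.9 and 15.2 CPM against 29.1 CPM. RNASE7, TNMD, AADACL4, A2M and the pair TEX13D and SH2D1A, which share the same peaks, fell by 1.03 to 1.10. AADACL4 was at 0.99 with only the peaks near its start, and SH2D1A at 0.99 with peaks assigned to the nearest start.

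The largest rises were in loci at a few CPM. CHST9, a sulphotransferase, had 0.889, 1.84 and 2.38 CPM in unstimulated, 2.65, 4.02 and 4.87 CPM in DMSO and 2.81, 5.30 and 8.01 CPM in belinostat libraries (1.67 ± 0.24, edgeR adjusted p = 1.11e-06), and its belinostat values did not overlap the unstimulated ones. AWAT2, a wax synthase, rose from a median of 1.69 to 5.58 CPM and above DMSO by 0.83 ± 0.22 (edgeR, adjusted p = 0.0413). KRT6A, CPNE6, ZNF479, CTRC, C19orf84 and GREP1 and the pair MS4A14 and MS4A7, which share their 4 peaks, rose by 1.31 to 1.53, and among them belinostat did not differ detectably from DMSO. With peaks assigned to the nearest start, C19orf84 turned to -0.62, CTRC to -0.012 and CPNE6 was at 0.014.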

How the data were processed

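Omni-ATAC libraries of Ccd18-Co cells were processed by the authors with the ENCODE ATAC-seq pipeline (alignment to hg38, duplicates and mitochondrial reads removed, MACS2 peaks), and the deposited table gives raw fragment counts for each library over merged peaks. Starts in the peak names were read as counted from 0. Counts of all 18 libraries were fitted with edgeR 4.0.16 (R 4.3.3; quasi-likelihood, 1 mean per group, TMM factors over all peaks, Benjamini-Hochberg adjustment), and DESeq2 1.42.0 served as an alternative. Loess offsets used a span of 0.3 on log counts with 2 added reads, and were fitted separately for peaks, gene loci and 1 Mb windows. Peaks were annotated with GENCODE release 44, words were searched in hg38, and promoters are from RefSeq. Class and word shares are percentages of a library's counts, compared by exact two-sided permutation. Lowest, median and highest levels are CPM with TMM-scaled totals. Named items followed the rule in the text, with 10 items each way, and loci needed at least 2 peaks; listed genes were named mainly where called with every scaling. The members and all lists were chosen with earlier results of these data known, and the 1 Mb windows, the every-scaling calls and the E-box share were added after seeing the data. Pairs of libraries within a group differed by more than sampling noise (chi-square per peak 1.03 to 2.88 over 33486 strong peaks). Some results on single genes are not reported here.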

Additional observations from a re-analysis of the deposited data

Results flagged for a closer look

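Of 272 groups of 6 values examined, 17 held a library whose gap to its nearest neighbour was over 0.625 of the group's range (Dixon's test), where chance flags about 5%. Unstimulated replicate 6 gave 7 of them. It had 11.3% of peaks at 0, against 1.01 to 4.20% in the other unstimulated libraries. In log2 CPM it was highest for the third closed peak (2.72), CXCL2 (4.57), RUNX2 (8.47), PDPN (7.45) and VCAM1 (5.06) and lowest for the first opened peak (-1.81). Belinostat replicate 1 had 5.35% of peaks at 0 against 0.505 to 2.24% in the other belinostat libraries, 39.8% of counts in the peaks highest in GC against 37.8 to 38.3%, and a low KRTAP10-4 (-0.17 log2 CPM). Unstimulated replicate 2 had 39.1% of counts in the peaks highest in GC against at least 40.002%, and a high eighth opened peak (0.54 log2 CPM). Unstimulated replicate 5 had the lowest share of distal counts in E-box peaks, 21.1% against 21.4 to 21.5%, still above all belinostat libraries, and the lowest value of the ninth opened peak (0.56 log2 CPM). The other belinostat libraries that stood apart were replicate 4, low for the third closed peak (-1.22), replicate 2, low for CCL7 (1.28), and replicate 6, high for CXCL5 (3.00), in log2 CPM. Causes were not tested.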

How the results depend on the processing

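Counts of calls depended on scaling. Opened and closed peaks numbered 101897 and 21124 with library totals, 8850 and 103354 with TMM over the weaker 50% of peaks, 23757 and 12385 with loess offsets, and 20867 and 9459 with loess offsets that also removed the GC trend. They were 22441 and 27318 at an adjusted p under 0.01 with an absolute log2 fold change of at least 0.5, and 25293 peaks were opened when only those with an average log2 CPM over 0 were tested. The higher gene loci and lower gene loci numbered 4743 and 5519 with library totals, 3960 and 3157 with loess offsets, 5020 and 3970 with DESeq2 and 1382 and 3554 at the stricter threshold, and 320 loci were higher with TMM over the weaker peaks. Leaving out 1 library at a time gave 37404 (without belinostat replicate 4) to 65269 (without belinostat replicate 1) opened peaks. Among 111 named items, 2479 of 2523 repeats kept the direction and the side of the threshold, 31 kept the direction and lost the call, and 13 reversed. Assigning peaks to the nearest coding start reversed SH2D1A (0.99), CTRC (-0.012), C19orf84 (-0.62), CXCL5 (-0.041), MMP2 (0.63), HOXB1 (-0.40) and GRIA3 (-0.30). Using only peaks near the start reversed AADACL4 (0.99), MMP2 (0.56) and GLI3 (1.37). ETV4 was at 0.0097 with library totals, 0.13 with loess offsets and 0.051 with DESeq2. The cause of each was not tested. The class shares and the E-box share kept their direction and call under every alternative run for them. Same-numbered libraries correlated by -0.02 to 0.11 in their deviations and 3 of 6 correlated best with their own number, so the numbers were not taken as pairs. With the replicate block there were 54150 opened and 46357 closed peaks and 2457 higher and 12556 lower loci, and no named item changed its call. Belinostat libraries had the fewest counts, which limits the weak peaks most.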
